A study of Mus musculus with 4 samples.

Results

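Imprinted genes are the few genes of a mammal that are read mainly from the copy of one parent, and 46 well-known ones, listed by gene name, were followed here through a study of the chromatin-associated protein Tcf20 in the embryonic mouse brain. A row of that name was found for 45 of the 46 among 22084 genes; Snurf, whose transcript is shared with Snrpn, had no row of its own. Of the 45, 42 had enough counts to be tested, among 16252 tested genes. Transcripts were counted in 4 libraries of telencephalic tissue, the front of the embryonic brain from which cortex and basal ganglia arise, from E13.5 embryos of strain B6D2F2 (E for embryonic day). The groups were 2 libraries labelled TCF20-/- (KO26F and KO23M), 1 library labelled TCF20+/+ (WT25F) and 1 library, WT22M, whose title reads WT and whose genotype field reads TCF20+/-. WT25F and WT22M thus have an intact allele whichever label is right, and are named carriers below. The labels give tissue as telencephalic and the extraction protocol names cerebral cortex; they name neither the deleted exons nor separate litters, so p-values measure only the spread between these libraries.

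A parent's mark on an imprinted gene is methylation of CpG bases set in the egg or the sperm and kept in the body cells of the embryo. A few marked control regions each steer a cluster of genes, often through a long noncoding RNA or an insulator, so that neighbours in a cluster are read from opposite parental copies. In mouse, many paternally read members such as Igf2 favour growth, many maternally read members such as H19 and Cdkn1c restrain it, and the genes of the Snrpn to Ndn cluster are best known in neurons, since loss of the human counterparts causes Prader-Willi and Angelman syndromes. The counts do not separate the parental copies, so every value below is the sum of both, and a change in imprinting cannot be read from them.

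The libraries held 17791641 to 18509743 counts in genes, and 3 counts corresponded to 0.162 to 0.169 CPM, the count scaled to the library's total. Tcf20 itself (ENSMUSG00000041852, chromosome 15) stood at 97.1 CPM in KO26F and 105 CPM in KO23M, against 117 CPM in WT25F and 113 CPM in WT22M. Its log2 fold change between KO and carriers was -0.18 (SE 0.10, edgeR adjusted p = 1.0), and counts over the whole gene do not show whether a deleted part is missing. Markers of cortical progenitors summed to 2304 and 2501 CPM in the KO libraries, against 2277 CPM in WT25F and 2442 CPM in WT22M. Markers of ventral GABAergic cells, the inhibitory lineage of the basal ganglia, summed to 1309.9 and 1374 CPM in the KO libraries, against 1176 CPM in WT25F and 1181 CPM in WT22M. All 11 of them had a log2 fold change above 0, against 8232 of 16252 tested genes. For 9 of the 11 both KO libraries lay above both carriers, against 2253 of 16252 tested genes. In the main comparison 0 passed (4 at an unadjusted p under 0.05, against 2.86% of all tested genes). A fit with the title letters as a block, described with Igf2, called 2, against 0.757% of all tested genes. The part of ventral GABAergic cells in the values of imprinted genes was not tested. Markers of neighbouring tissue were uneven. Choroid plexus genes summed to 1010 and 809.6 CPM in the KO libraries, against 958 CPM in WT25F and 211 CPM in WT22M, and thalamus and diencephalon genes to 42.8 and 40.8 CPM in the KO libraries, against 98.8 CPM in WT25F and 39.5 CPM in WT22M.

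Sequences are shown for 2 kinds of member. Igf2 and H19, the pair with the lowest p-values between KO and carriers, each hold a microRNA hairpin, and the RefSeq mature sequences (GRCm38.p6) are given 5′ to 3′ with the seed, bases 2 to 8, in capitals.
miR-675-5p, inside H19, chr7:142577112-142577133, minus strand: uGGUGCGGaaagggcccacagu
miR-675-3p, inside H19, chr7:142577078-142577099, minus strand: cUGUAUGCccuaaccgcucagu
miR-483-5p, inside Igf2, chr7:142654968-142654989, minus strand: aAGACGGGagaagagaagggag
miR-483-3p, inside Igf2, chr7:142654932-142654952, minus strand: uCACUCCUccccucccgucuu
No seed is shared among the 4, and the mature RNAs themselves were not measured. Hairpins listed in the same table also lie inside Mirg (14, all on its strand), Rtl1 (7, of which 1 on its strand), Rian (3) and Calcr (2), and 1 each lies inside Usp29 and Mest. Meg3 shares exon bases with the microRNA genes Mir770 and Mir1906-1.

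Start regions were taken from RefSeq promoter windows (GRCm38.p6, 250 bases before and 50 after a start) for 37 of the 46 genes. They were searched on both strands for TGCCGC, the hexamer that the imprint-keeping zinc finger protein Zfp57 binds when its CpG is methylated; no other motif was searched. The hexamer was in a window of 13 of 37 imprinted genes (35.1%), against 3527 of 27025 genes in all (13.1%), which had 1.22 windows a gene where the imprinted genes had 1.49. Of 13 matched members listed, by gene, as having a start in a germline-marked region, 8 held it (61.5%), and of the other 24 it was in 5 (20.8%). The listing was not made by window, and a hexamer in any window of a gene counted. Grb10, among the 8, held it in the window from chr11:12037371 and not in that from chr11:12027922. Gnas, which has several start windows, was listed as unmarked and held none. Snrpn and Snurf are both counted, through 1 identical window; with Snurf left out the counts were 12 of 36 (33.3%) and 7 of 12 (58.3%). The windows were also richer in CpG, with a median of 17 in a gene's richest window, against 8 over all genes. Shown first are a pair of the 4 start windows of Igf2, the growth factor that the results turn on, and then Mest and Plagl1, whose starts carry a mark from the egg; the hexamer or its reverse complement is in capitals.
Igf2, chr7:142661222-142661521, minus strand: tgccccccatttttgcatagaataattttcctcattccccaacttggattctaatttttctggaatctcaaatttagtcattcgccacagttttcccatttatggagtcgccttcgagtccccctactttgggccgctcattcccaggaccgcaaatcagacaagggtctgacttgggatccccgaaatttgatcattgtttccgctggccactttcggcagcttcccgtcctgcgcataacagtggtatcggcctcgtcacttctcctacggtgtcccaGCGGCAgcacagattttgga
Igf2, chr7:142658755-142659054, minus strand: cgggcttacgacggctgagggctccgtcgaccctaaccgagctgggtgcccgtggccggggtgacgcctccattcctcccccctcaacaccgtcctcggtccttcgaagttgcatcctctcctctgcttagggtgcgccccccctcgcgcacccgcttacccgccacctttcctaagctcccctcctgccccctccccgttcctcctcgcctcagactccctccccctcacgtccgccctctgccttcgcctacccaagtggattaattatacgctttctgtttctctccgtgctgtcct
Mest, chr6:30737800-30738099, plus strand: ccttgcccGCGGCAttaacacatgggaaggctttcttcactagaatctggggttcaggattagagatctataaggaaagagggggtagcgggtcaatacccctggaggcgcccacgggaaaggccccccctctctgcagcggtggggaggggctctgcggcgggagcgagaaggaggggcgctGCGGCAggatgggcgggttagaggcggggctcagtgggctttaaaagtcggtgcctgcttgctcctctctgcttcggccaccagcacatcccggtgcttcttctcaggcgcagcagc
Plagl1, chr10:13090582-13090881, plus strand: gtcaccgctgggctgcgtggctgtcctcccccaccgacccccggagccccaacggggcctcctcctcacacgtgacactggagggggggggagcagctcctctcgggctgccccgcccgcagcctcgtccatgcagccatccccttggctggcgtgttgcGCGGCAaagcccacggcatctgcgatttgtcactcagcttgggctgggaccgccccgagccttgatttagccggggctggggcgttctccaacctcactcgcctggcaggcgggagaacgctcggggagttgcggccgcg
The first Igf2 window holds 14 CpG and 1 hexamer, and the second holds 24 CpG and none. Mest's holds 17 CpG and 2 hexamers, and that of Plagl1, a zinc finger transcription factor that binds near other imprinted genes in mouse, holds 26 CpG and 1. The windows of Peg3 and Usp29, divergent genes of one cluster, overlap by 263 bases, and 1 of 4 Snrpn windows is that of Snurf. A match of these letters is a description and not a shown binding site.

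Imprinted genes spanned a wide range of expression in this tissue. Per kilobase of exon, the median tested member had 8.48 CPM, against 4.63 CPM for all tested genes. Nnat, a small membrane proteolipid of differentiating neurons, was the highest at 2359 CPM per kb (library range 2147 to 2502), and its neighbour Blcap, in whose intron Nnat lies, had 44.9 CPM per kb. Ndn (necdin, a growth suppressor of neurons) followed at 173 CPM per kb (160 to 182). The next places were not apart. H19 averaged 76.2 CPM per kb with a library range of 62.3 to 92.7, which overlaps the range of Peg13, a noncoding RNA from an intron of Trappc9 (61.6 to 66.1), and those of Meg3, a maternally read noncoding RNA (51.2 to 64.7), and Igf2 (46.4 to 67.9). At the low end, Kcnk9, a potassium channel, had 4 and 3 counts in KO libraries, against 2 in WT25F and 4 in WT22M. Phlda2, a brake on placental growth, had 1 and 2 counts in KO libraries, against 1 in WT25F and 2 in WT22M. Kcnk9 and Phlda2 were thus near 3 counts, taken here as the floor.

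**Figure D1:**
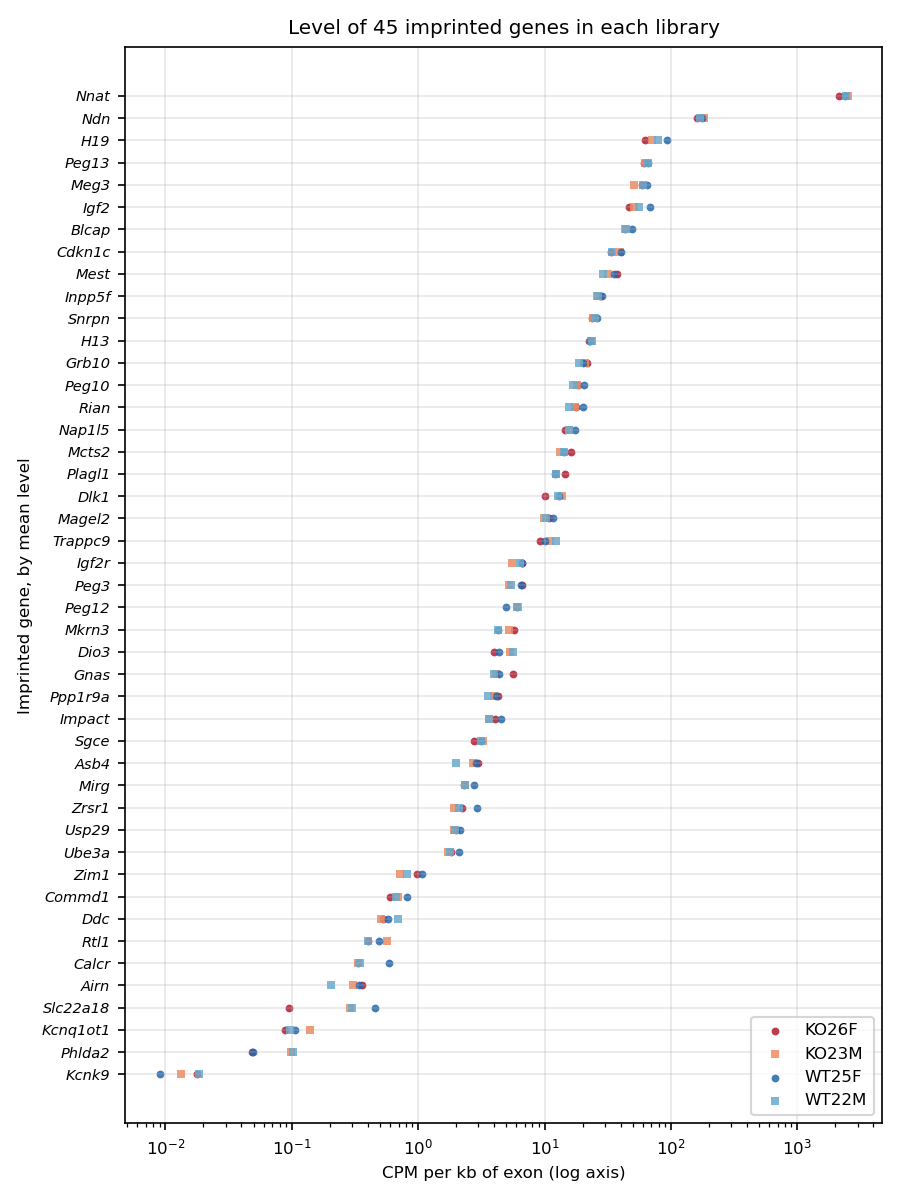
Level of the 45 imprinted genes with a row, in CPM per kilobase of exon on a log axis, 1 point per library (circles for titles ending in F, squares for M; reds for KO, blues for carriers). The order runs from Nnat at 2359 CPM per kb to Kcnk9 at 0.0146, and for most genes the 4 points lie nearly on top of each other.

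Between KO and carriers, no imprinted gene passed an adjusted p of 0.05. The count was 0 of 42, against 10 of 16252 tested genes (0.0615%), with edgeR's quasi-likelihood test and Benjamini-Hochberg adjustment over all tested genes. DESeq2 and limma voom also called 0. At an unadjusted p under 0.05, edgeR had 3 members (H19, Igf2 and Mkrn3), where 2.86% of all tested genes were under it; DESeq2 had 2 members and limma voom 3. The same held of the KO libraries against WT25F alone, with 0 of 42 called against 0.345% of all tested genes, a lowest edgeR adjusted p of 0.221 (H19), and 3 members at an unadjusted p under 0.05, as were 3.43% of all tested genes (2 members by DESeq2 and 3 by limma voom). For scale, 35 of the 42 log2 fold changes between KO and carriers lay within 0.25 of 0, as did 13091 of all 16252. The highest library was less than 1.5 times the lowest in 38 of 42 members (90.5%), against 76.1% of all tested genes; among those of at least 10 CPM these shares were 94.3% of 35 members and 96.6% of all.

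**Figure D2:**
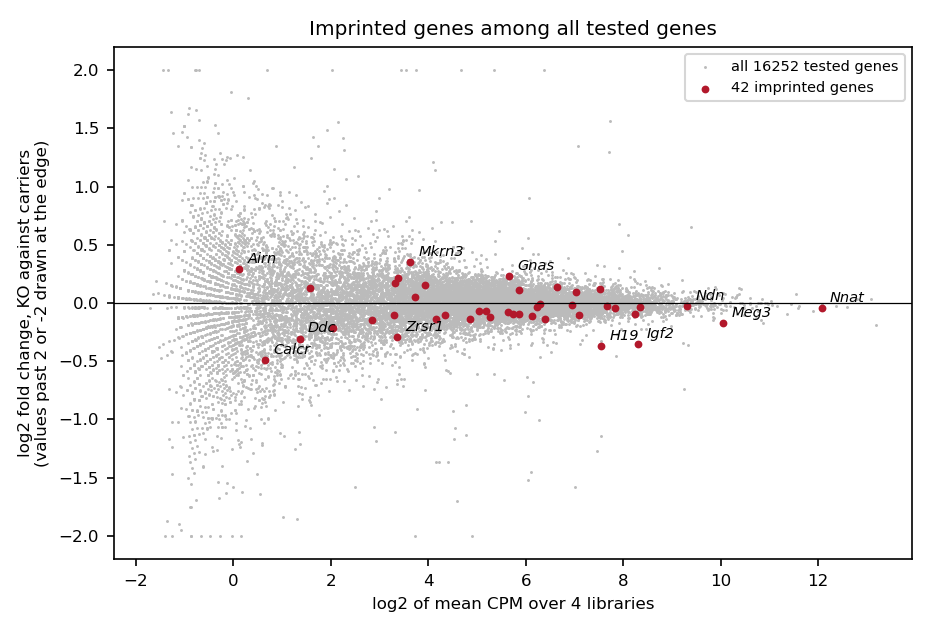
Log2 fold change of KO against carriers (vertical axis) by log2 of the mean CPM (horizontal axis), for all tested genes in grey and the 42 tested imprinted genes in red. Most members lie close to the line at 0; H19 and Igf2 lie below it, at -0.37 and -0.35, near the lower edge of the grey cloud at their level.

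The members with the lowest p were Igf2 and H19, neighbours on chromosome 7 that share enhancers. In most tissues they are read from opposite parental copies, Igf2 from the paternal and H19 from the maternal one. Which copies were read in this tissue was not measured. Igf2, insulin-like growth factor 2, the main growth factor of the embryo (ENSMUSG00000048583, 142650766 to 142666816, minus strand, in the annotation with GRCm38 positions), had 266 CPM in KO26F and 291 CPM in KO23M, against 389 CPM in WT25F and 322 CPM in WT22M. Both KO libraries lay below both carriers, and WT25F stood apart from the other 3. H19, the noncoding RNA that carries miR-675 (ENSMUSG00000000031, 142575529 to 142578143, minus strand), had 153 CPM in KO26F and 174 CPM in KO23M, against 228 CPM in WT25F and 195 CPM in WT22M, in the same order of libraries. The log2 fold change was -0.35 for Igf2 (SE 0.11, edgeR adjusted p = 0.960). For H19 it was -0.37 (SE 0.11, edgeR adjusted p = 0.898). These adjusted p-values did not pass.

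Igf2 and H19 kept a nearly constant ratio over the libraries. The ratio of Igf2 counts to H19 counts was 1.73 in KO26F and 1.67 in KO23M, against 1.70 in WT25F and 1.65 in WT22M. When the letter that ends each title was fitted as a block, which sets KO26F against WT25F and KO23M against WT22M, both passed: H19 had a log2 fold change of -0.37 and Igf2 of -0.35, each with an edgeR adjusted p of 8.14e-06, and they were the 2 of 42 members called, against 123 of 16252 genes (0.757%; 62 of them lower, 0.381%). That fit leaves 1 residual degree of freedom, so its spread is drawn mostly from all tested genes together. The labels do not say what the letters mean or that they pair the embryos. In the F pair the log2 ratio was -0.55 for Igf2 (95% counting interval -0.60 to -0.50) and -0.57 for H19 (-0.64 to -0.51). In the M pair it was -0.15 for Igf2 (-0.20 to -0.09) and -0.16 for H19 (-0.23 to -0.09), so the difference in the F pair was the larger. The F ratio less the M ratio was -0.40 for Igf2 and -0.41 for H19, where the block fit gave each an SE of 0.06. The small adjusted p-values of that fit thus do not hold the spread between the pairs.

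Igf2 and H19 in the embryonic brain are known to be strong in the meninges, the mesenchyme around vessels and the choroid plexus stroma. The 18 markers of mesenchyme and meninges summed to 637 CPM in KO26F and 683 CPM in KO23M, against 845 CPM in WT25F and 784 CPM in WT22M. Of these 18 genes 17 had a log2 fold change below 0 between KO and carriers (49.3% of all tested genes did), with a median of -0.24. In the main comparison 0 passed (7 at an unadjusted p under 0.05, against 2.86% of all tested genes). With the letter block described above 5 passed, against 0.757% of all tested genes, and no marker was at 0 in any library. Endothelium and pericyte markers summed to 463 and 489.9 CPM in KO libraries, against 521 CPM in WT25F and 539 CPM in WT22M, with 14 of 15 below 0 and a median of -0.14. Microglia and macrophage markers summed to 94.7 and 101 CPM in KO libraries, against 110.0 CPM in WT25F and 129 CPM in WT22M. Of these 11 genes 10 were below 0, with a median of -0.35, and 0 passed, with or without the block. Both KO libraries lay below both carriers for 8 of the 11, against 2198 of 16252 tested genes. Relative to WT25F, the mesenchyme sum was 75.4% in KO26F, 80.8% in KO23M and 92.8% in WT22M, where Igf2 was 68.4%, 74.7% and 82.7%. Within the mesenchyme sum, Ptgds had 42.6 CPM in WT25F, against 9.13 CPM in KO26F, 10.8 CPM in KO23M and 8.66 CPM in WT22M. WT25F was the highest library for 12 of the 18 markers and WT22M for 4. Choroid plexus markers went the other way between KO and carriers, with 9 of 9 tested above 0 and a median of 0.53. Against WT25F alone, 8 of them were below 0. Their sum relative to WT25F was 105% in KO26F, 84.5% in KO23M and 22% in WT22M. Of 10 tested erythroid markers 6 were above 0 and 4 below, with a median of 0.16. The part of all these cell types in the Igf2 and H19 values was not tested. In bulk tissue fewer cells of a type and less RNA per cell cannot be told apart. Of the 6 other genes within 200 kb of the pair that were tested, 0 passed and 0 were at an unadjusted p under 0.05, with log2 fold changes from -0.61 to 0.39. Prr33 had 13 and 16 counts in KO libraries, against 17 in WT25F and 26 in WT22M (log2 fold change -0.61, SE 0.49). Gm33148 stood at 0.39 (SE 0.42), Lsp1, a leukocyte actin-binding protein, at 0.27 (SE 0.25), Ctsd, a lysosomal protease, at 0.07 (SE 0.11), and Mrpl23, a mitochondrial ribosomal protein, at -0.04 (SE 0.12). Igf2os, a transcript antisense to Igf2, had 2.06 and 2.03 CPM in KO libraries, against 3.15 CPM in WT25F and 2.68 CPM in WT22M, which put its log2 fold change at -0.51 (SE 0.32, edgeR adjusted p = 1.0). In the annotation, 62.8% of the exon bases of Igf2 lie in exons of Gm49394 as well, which is on the same strand and had no row of that name. A share of 1.71% lies in exons of Igf2os, on the other strand. No source used here gives the strand setting of the counting, and how far the shared bases affected these counts was not tested.

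**Figure D3:**
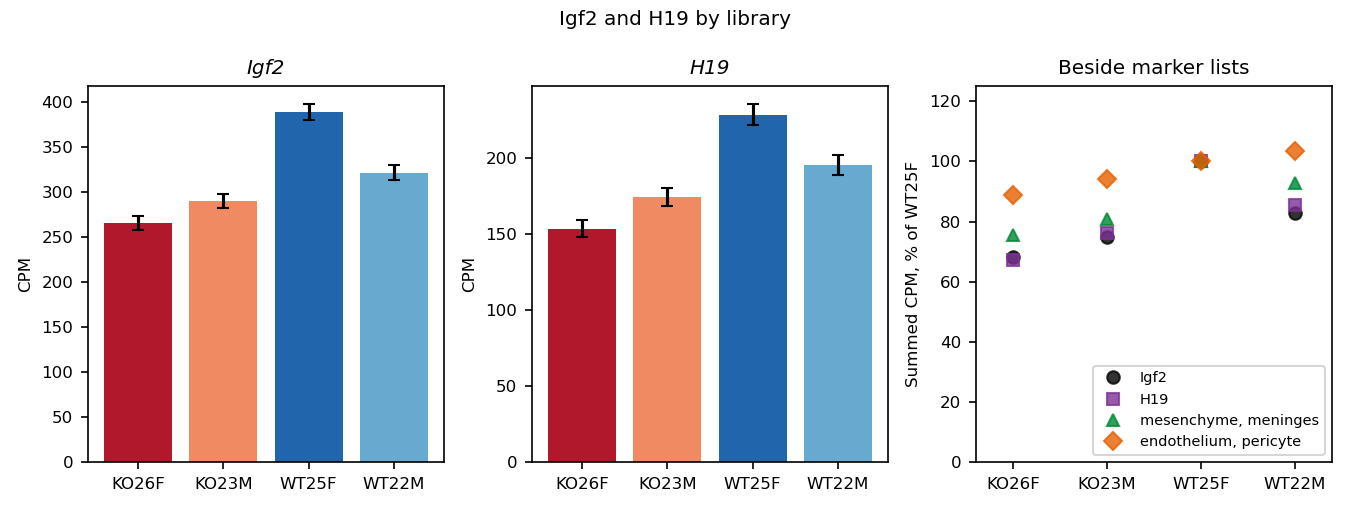
Igf2 and H19 in CPM by library with 95% counting intervals (left and middle, bars from 0), and both beside the summed markers of mesenchyme and meninges and of endothelium and pericytes, each as a percentage of WT25F (right). KO26F is the lowest and WT25F the highest for Igf2, H19 and the mesenchyme sum, with KO23M and WT22M between them; the endothelial sum is highest in WT22M.

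The other growth regulators did not pass the test either. Grb10, an adaptor that damps insulin and IGF receptor signalling, had 196 and 189 CPM in KO libraries, against 183 CPM in WT25F and 172 CPM in WT22M, so both KO libraries lay above both carriers. Its log2 fold change was 0.12 (SE 0.10, edgeR adjusted p = 1.0). Gnas, which encodes the stimulatory G protein alpha subunit, had 63.3 CPM in KO26F and 46.5 CPM in KO23M, against 48.8 CPM in WT25F and 44.6 CPM in WT22M. Only KO26F was high, and the log2 fold change of Gnas, 0.23 (SE 0.13, edgeR adjusted p = 1.0), became -0.0084 without that library. Igf2r, the receptor that clears IGF2, Cdkn1c, an inhibitor of the cell cycle, and Dlk1, a Notch-related membrane protein, had log2 fold changes of -0.09, -0.03 and -0.11.

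The 7 noncoding RNAs with a row had a median log2 fold change of -0.09, 5 of them below 0. Meg3, the maternally read RNA of the Dlk1 to Dio3 cluster, had 1065 CPM in KO26F and 927 CPM in KO23M, against 1170.2 CPM in WT25F and 1079 CPM in WT22M. Both KO libraries lay below both carriers, KO26F only just, and the log2 fold change was -0.18 (SE 0.10, edgeR adjusted p = 1.0); without KO23M it was -0.079. Rian and Mirg, which lie downstream of Meg3 and hold small RNA genes, had log2 fold changes of -0.03 and -0.14. Kcnq1ot1, the RNA that silences its cluster on the paternal copy, had 8.20 CPM in KO26F and 13 CPM in KO23M, against 9.83 CPM in WT25F and 9.0 CPM in WT22M. The KO libraries lay on both sides of the carriers, and the log2 fold change was 0.17 (SE 0.21, edgeR adjusted p = 1.0). Airn, the RNA that silences Igf2r on the paternal copy in mouse, had 24 and 20 counts in KO libraries, against 22 in WT25F and 13 in WT22M, and its log2 fold change was 0.29 (SE 0.47, edgeR adjusted p = 1.0). Peg13 differed little, with 291 and 294 CPM in KO libraries, against 311 CPM in WT25F and 313 CPM in WT22M.

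Of the 5 tested genes of the Snrpn to Ndn cluster that are read from the paternal copy, Mkrn3 had the lowest p. Mkrn3, a zinc finger protein known in human as a brake on puberty, had 14.5 CPM in KO26F and 13.2 CPM in KO23M, against 10.8 CPM in WT25F and 10.9 CPM in WT22M. Both KO libraries lay above both carriers. The log2 fold change was 0.35 (SE 0.17, edgeR adjusted p = 1.0), and the sign was the same in the F pair (0.42) and the M pair (0.28). Peg12, its neighbour on one side, had 15.9 and 16.3 CPM in KO libraries, against 12.98 CPM in WT25F and 15.9 CPM in WT22M. WT25F alone was low, and the log2 fold change of Peg12 was 0.16 (SE 0.16), with 0.29 in the F pair (95% counting interval 0.04 to 0.54) and 0.04 in the M pair (-0.20 to 0.28). Ndn, Magel2 (a regulator of protein ubiquitination) and Snrpn (a splicing protein) had log2 fold changes of -0.03, -0.08 and -0.09; differences between Mkrn3 and these genes were not tested. Ube3a, the maternally read ubiquitin ligase of Angelman syndrome, had 37.7 and 35.6 CPM in KO libraries, against 43.1 CPM in WT25F and 36.6 CPM in WT22M. A share of 27.3% of its exon bases lies in exons of genes on the other strand, 8.74% in its antisense RNA Snhg14 and the rest in Gm44560 and 9330162G02Rik.

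Among zinc finger genes and domesticated retrotransposons, Plagl1 had 114 CPM in KO26F and 95.9 CPM in KO23M, against 94.8 CPM in WT25F and 96.0 CPM in WT22M. KO26F alone was high, and the log2 fold change was 0.14 (SE 0.11, edgeR adjusted p = 1.0), or 0.0046 without KO26F. Peg3, Peg10, Rtl1 and Zim1 lay between -0.15 and 0.13. Of the retrogenes and their hosts, Zrsr1, a splicing factor copy inside Commd1, had 9.94 and 8.61 CPM in KO libraries, against 13.2 CPM in WT25F and 9.51 CPM in WT22M. WT25F alone was high, and the log2 fold change was -0.29 (SE 0.19, edgeR adjusted p = 1.0), or -0.040 without WT25F. Commd1, a regulator of protein turnover, had a log2 fold change of -0.21 (SE 0.26). Nap1l5, Impact, Mcts2, H13 and Inpp5f lay between -0.13 and 0.05, and Usp29, the deubiquitinase gene divergent from Peg3, was at -0.07. Trappc9, a vesicle trafficking protein whose human loss causes intellectual disability, had 73.7 CPM in KO26F and 87.7 CPM in KO23M, against 79.5 CPM in WT25F and 98.2 CPM in WT22M. The groups overlapped, and the log2 fold change was -0.14 (SE 0.12, edgeR adjusted p = 1.0). Trappc9, Peg13 and Kcnk9 lie on chromosome 15, as Tcf20 does, 9.75 to 10.3 Mb away from it.

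Of the remaining members, Calcr, the calcitonin receptor, had 24 counts in each KO library, against 42 in WT25F and 24 in WT22M, so that WT25F alone was high; its log2 fold change was -0.49 (SE 0.41, edgeR adjusted p = 1.0), and -0.065 without WT25F. Ddc, the decarboxylase that makes dopamine and serotonin, had 43 and 41 counts in KO libraries, against 47 in WT25F and 54 in WT22M (log2 fold change -0.31, SE 0.32, edgeR adjusted p = 1.0). Asb4, a ubiquitin ligase adaptor, had 11.6 and 10.7 CPM in KO libraries, against 11.4 CPM in WT25F and 7.86 CPM in WT22M. WT22M alone was low, and the log2 fold change was 0.21 (SE 0.19, edgeR adjusted p = 1.0). Blcap had 131 and 132 CPM in KO libraries, against 149 CPM in WT25F and 135 CPM in WT22M (log2 fold change -0.11, SE 0.10, edgeR adjusted p = 1.0). Nnat, Mest, Sgce, Ppp1r9a and Dio3 had log2 fold changes between -0.10 and 0.11. Slc22a18, a transporter, was too low to be tested, with 3 and 9 counts in KO libraries, against 14 in WT25F and 9 in WT22M.

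Seen together, small differences leaned to the lower side, and WT25F carried much of the lean. Of 42 members, 30 had a log2 fold change below 0 between KO and carriers (71.4%, against 49.3% of all tested genes), with a median of -0.07, against 0.00 over all tested genes. Against WT25F alone, 32 were below 0 (76.2%, against 49.1%) with a median of -0.12. KO26F was the highest library for 10 of 42 members (23.8%, against 27.6% of all tested genes) and KO23M for 7 (16.7%, against 25.0%), where WT25F was the highest for 20 (47.6%, against 23.3%) and WT22M for 5 (11.9%, against 24.0%). Without WT25F, 22 members were below 0 and 20 above, with a median of -0.0021. KO and carriers did not overlap for 11 of 42 members (26.2%, against 27.4% of all tested genes). Both KO libraries lay below both carriers for 9, where 2198 of 16252 tested genes did: Igf2, H19, Calcr, Meg3, Mirg, Snrpn, Ddc, Blcap and Peg13. They lay above both for 2, Mkrn3 and Grb10, where 2253 of 16252 did. For Calcr and Mirg the gap to WT22M was narrow. Calcr had 1.30 and 1.32 CPM in KO libraries, against 1.37 CPM in WT22M. Mirg had 16.9 and 17.0 CPM in KO libraries, against 17.1 CPM in WT22M. The members are not independent of each other, since clusters share control regions and some share exon bases.

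**Figure D4:**
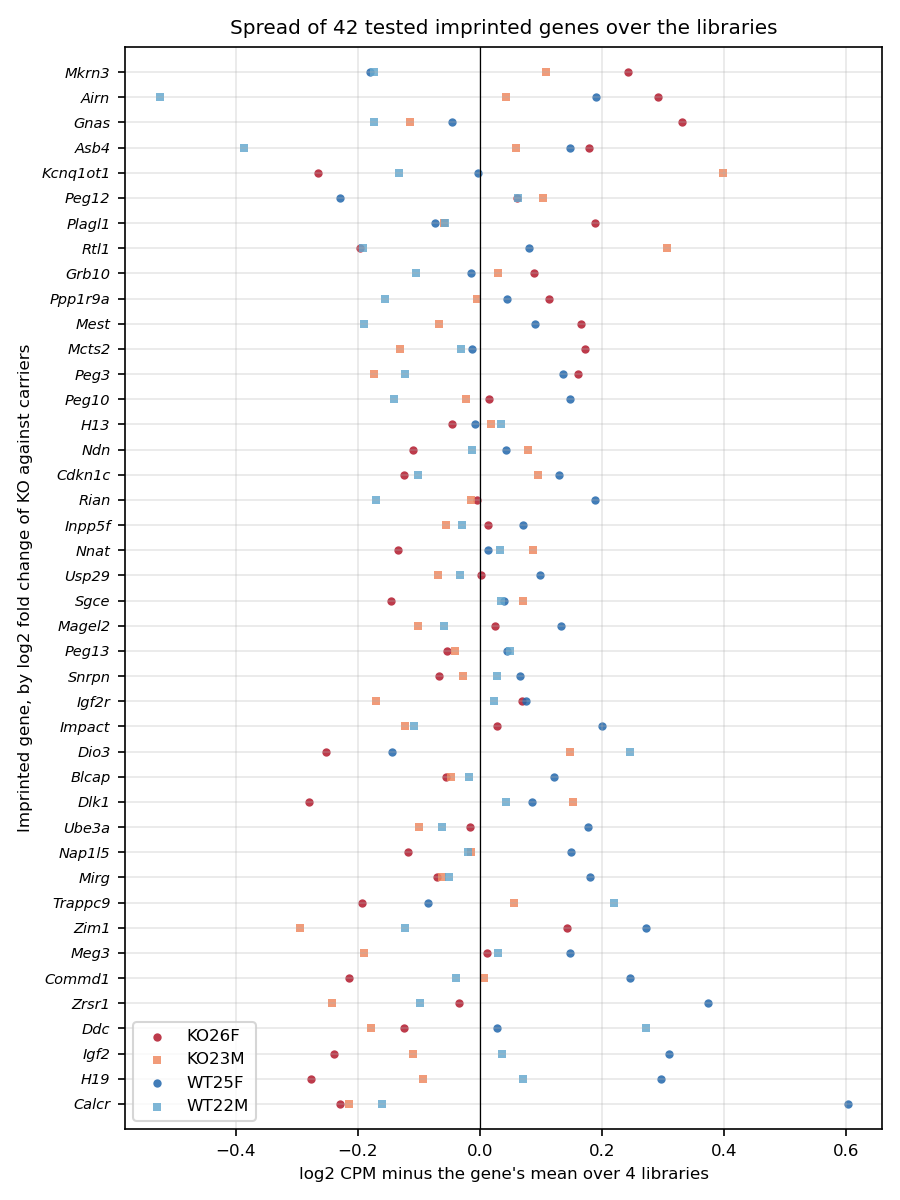
Log2 CPM of each of the 42 tested imprinted genes in each library, less the gene's mean over the 4 libraries, ordered by the log2 fold change of KO against carriers from Mkrn3 at the top to Calcr at the bottom. WT25F (dark blue circles) is the point farthest right in 20 of the 42 rows, and the KO points stand right of both carrier points in 2 rows and left of both in 9.

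Members were also grouped by the parental copy listed for each gene, which was not measured in this tissue. Maternally read members had a median log2 fold change of -0.13 (12 of 14 below 0). Paternally read members had one of -0.04 (15 of 23 below 0). None of either passed, and the difference between these lists was not tested. WT22M against WT25F sets 1 library, of the genotype the labels leave unclear, against 1 of TCF20+/+. There too 0 of 42 members were called, against 0.714% of all tested genes. At an unadjusted p under 0.05 there were 2 members, Rian and Asb4, against 4.88% of all tested genes (DESeq2 and limma voom 1 member each), and 33 were below 0 (78.6%, against 50.5%) with a median of -0.14. Rian had 287 CPM in WT22M, against 368 CPM in WT25F, and Asb4 7.86 CPM in WT22M, against 11.4 CPM in WT25F. KO against WT25F and WT22M against WT25F share WT25F.

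**Figure D5:**
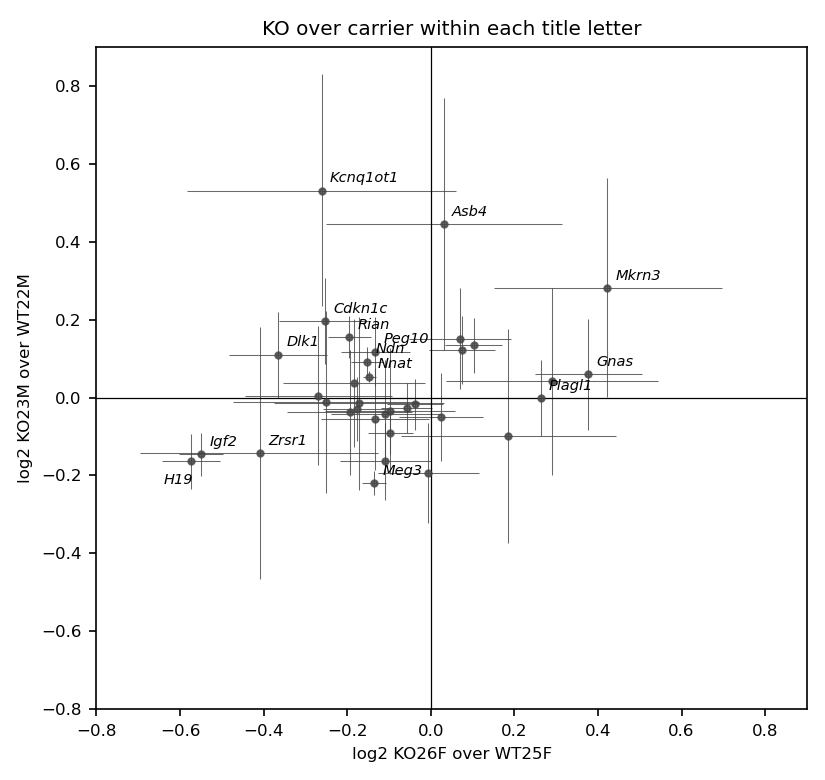
Log2 ratio of KO26F over WT25F (horizontal axis) and of KO23M over WT22M (vertical axis) for the 35 tested imprinted genes of at least 10 CPM, with 95% counting intervals as lines. H19 and Igf2 lie lower left, at -0.57 and -0.55 on the horizontal and -0.16 and -0.15 on the vertical axis; Mkrn3 lies upper right.

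Genes that set or read imprints, from a list separate from the members, did not pass either. Of 30 listed, 27 had a row, and all 27 were tested. Of 27 tested regulators 0 were called and 0 were at an unadjusted p under 0.05, with 19 above 0 and 8 below and a median of 0.04. They were not all stable. The highest library was less than 1.5 times the lowest for 24 of the 27, and 6.30 times in the widest. The lowest log2 fold change was -0.64 between KO and carriers and -2.66 in WT22M against WT25F. Zfp57, which keeps methylation at control regions, had 315 and 307 CPM in KO libraries, against 316 CPM in WT25F and 319 CPM in WT22M. Dnmt1, the methylase that copies CpG methylation after replication, had 267 and 274 CPM in KO libraries, against 252 CPM in WT25F and 287 CPM in WT22M. The lowest p was that of Uhrf1, which guides Dnmt1, with 127 and 131 CPM in KO libraries, against 105 CPM in WT25F and 118 CPM in WT22M (log2 fold change 0.21, SE 0.10, edgeR adjusted p = 1.0). Tet2, a methylcytosine oxidase, had a log2 fold change of 0.31 (SE 0.16). Of 33 tested further imprinted genes or neighbours, 15 were above 0 and 18 below with a median of -0.01 and 0 called.

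The IGF system around Igf2 gave 0 of 19 called, with 12 above 0 and 7 below and a median of 0.01. Igf1r, the receptor through which IGF2 acts, had 122 and 112 CPM in KO libraries, against 108 CPM in WT25F and 108 CPM in WT22M. Igf2bp3, an RNA-binding protein that takes up Igf2 mRNA, had 15.6 and 11.8 CPM in KO libraries, against 11.3 CPM in WT25F and 10.6 CPM in WT22M (log2 fold change 0.32, SE 0.18, edgeR adjusted p = 1.0). Igfbp3, a secreted IGF-binding protein, had 46.6 CPM in KO26F and 34.3 CPM in KO23M, against 45.7 CPM in WT25F and 51.0 CPM in WT22M. Of 15 genes placed around Plagl1, 14 are members here; 4 were above 0 and 11 below with a median of -0.04, and 0 passed.

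The authors' deposited tables set each library against WT25F. A gene was marked here if its deposited adjusted p was under 0.05 and its deposited log2 fold change at least 1 in either direction. In KO26F 1 of 45 members was marked, Slc22a18 at a log2 fold change of -2.24 on 3 against 14 counts (1.96% of all listed genes were marked). By the same rule 0 members were marked in KO23M (2.90% of listed genes) and 0 in WT22M (3.62%). The authors' deposited adjusted p was under 0.05 for 18 of 45 members in KO26F (40.0%, against 13.7% of all listed genes), 20 in KO23M (44.4%, against 22.1%) and 20 in WT22M (44.4%, against 22.4%). Each of these p-values comes from 1 library against 1, so that it covers the reads and not the spread between embryos. The median tested member had 52.2 CPM, against 20.5 CPM for all tested genes.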

How the data were processed

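RNA from 4 libraries was measured by sequencing of total RNA with an Illumina TruSeq kit, per the labels' protocols. The authors deposited 3 tables, for KO26F, KO23M and WT22M, each beside WT25F. Per the file headers, a table holds a raw count per gene and library; the authors also deposited a normalized value in CPM (a count of 0 written as 0.5 counts), the log2 ratio of these values, and an adjusted p-value whose test no source used here names. Per the submitters' processing notes, the tools were Bowtie2 2.2.3, TopHat2 2.0.12 and HTSeq 0.6.0, with build mm9 named; the deposited positions were those of GENCODE vM21 (GRCm38) for 91.8% of the 22084 genes, and positions here follow that annotation.

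The tables were joined by gene identifier, with 0 counts where a gene was missing from a table (19626 genes were in all 3). Imprinted genes were taken by gene name. Raw counts were tested with edgeR 4.0.16 in R 4.3.3 (quasi-likelihood, robust, TMM, filterByExpr on the 2 arms, Benjamini-Hochberg threshold 0.05) for KO against carriers. Both comparisons with WT25F used a model of 3 groups, whose spread rests on the 2 KO libraries; WT25F and WT22M were assumed to vary like them. CPM in the text are TMM-scaled, and CPM per kb divide by the exon union in GENCODE vM21. Counting intervals (95%, exact) cover counting error only. The scripts were tested on simulated data. The alternatives run were DESeq2 1.42.0, limma 3.58.1 voom, RLE size factors, other filters, genes on X and Y left out, the title letter as a block, each library left out, and the spread of the fit with 2 arms.

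Values are given in full for members that passed in any comparison, for the 12 with the lowest p and for the 5 highest and 5 lowest fold changes among those of at least 1 CPM; from the lists of imprint regulators and IGF partners genes among the 4 with the lowest p are named. Zfp57, Dnmt1, Igf1r and the tested neighbours of Igf2 and H19 were added after their values were seen. Members and lists were chosen with earlier results of these data known. The design text speaks of triplicates; 4 libraries were analysed here.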

Additional observations from a re-analysis of the deposited data

Results flagged for a closer look

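For 5 imprinted genes the KO over carrier ratio had opposite signs in the F libraries (KO26F over WT25F) and the M libraries (KO23M over WT22M), with both 95% counting intervals away from 0. The log2 ratio in the F libraries less that in the M libraries was -0.45 for Cdkn1c, -0.35 for Rian, -0.25 for Peg10, -0.24 for Ndn and -0.20 for Nnat. Cdkn1c had a log2 ratio of -0.25 in the F libraries and 0.20 in the M libraries, Rian one of -0.19 in the F libraries and 0.16 in the M libraries, and Nnat one of -0.15 in the F libraries and 0.05 in the M libraries. In all 5, KO26F lay below WT25F and KO23M above WT22M. These were 5 of 42 tested members (11.9%), against 684 of 16252 tested genes (4.21%). There was 1 library for each letter and genotype, so the difference between the letters was not tested, and highly counted genes have narrow counting intervals that do not hold the spread between embryos.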

How the results depend on the processing

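The count of imprinted genes called was 0 in all 3 comparisons under every alternative run, apart from the title letter as a replicate block, where 2 (H19 and Igf2) passed between KO and carriers; leaving out each library in turn gave 0 to 0. Over the alternatives the log2 fold change of H19 ranged from -0.48 (without WT22M) to -0.26 (without WT25F). That of Igf2 ranged from -0.48 (without WT22M) to -0.21 (without WT25F). Between the carriers, WT22M against WT25F, it was -0.23 for H19 and -0.27 for Igf2. Of 165 values for the 15 members named in full, 158 kept their sign and side of the threshold, 2 came to pass (H19 and Igf2 under the block) and 5 turned sign, none of them called. With 1 library left out, the log2 fold change of Gnas ranged from -0.0084 (without KO26F) to 0.44, of Kcnq1ot1 from -0.20 (without KO23M) to 0.46, of Trappc9 from -0.29 to 0.022 (without WT22M), of Asb4 from -0.028 (without WT22M) to 0.50, and of Airn from -0.017 (without WT22M) to 0.69. It kept its sign but moved for Calcr, from -0.82 to -0.065 (without WT25F), Zrsr1, from -0.51 to -0.040 (without WT25F), Meg3, from -0.28 to -0.079 (without KO23M), Plagl1, from 0.0046 (without KO26F) to 0.25, Blcap, from -0.17 to -0.038 (without WT25F), Ddc, from -0.43 to -0.18, Grb10, from 0.073 to 0.16, and Mkrn3, from 0.28 to 0.42. Over all genes, the 10 called between KO and carriers became 123 with the block and 42, 110, 96 and 57 without KO26F, KO23M, WT25F and WT22M. The 56 called between KO and WT25F became 23 with DESeq2, 0 with no filter and 10 with the spread of the fit with 2 arms, and the 116 called between WT22M and WT25F became 33, 0 and 0. The causes of these shifts were not tested. The labels share no replicate numbers between groups, so the block rests on the title letter alone. Airn, Calcr and Ddc, at 13 to 54 counts a library, and the 3 untested members are limited by depth.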

Other observations

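Of the genes that share exon bases with an imprinted gene without being one of the 46, 4 are given here. All 4 lie on the other strand. Nespas covers 8.83% of the exon bases of Gnas, Snhg14 8.74% of Ube3a, Copg2 23.1% of Mest and Kcnq1 0.13% of Kcnq1ot1. With shares this small, their values cannot settle the strand setting of the counting. Nespas, the RNA antisense to Gnas, had 10 counts in KO26F and 35 in KO23M, against 10 in WT25F and 11 in WT22M, so that KO23M alone was high, where Gnas was high in KO26F alone. Snhg14, the paternally read RNA that runs from Snrpn into the antisense strand of Ube3a, had 34.5 CPM in KO26F and 27.9 CPM in KO23M, against 34.2 CPM in WT25F and 34.0 CPM in WT22M. Copg2, which overlaps the end of Mest, had 60.9 and 57.6 CPM in KO libraries, against 60.7 CPM in WT25F and 50.96 CPM in WT22M; Mest had its lowest value in WT22M as well, at 115 CPM. Kcnq1, the channel gene from whose intron Kcnq1ot1 starts, had 29 and 25 counts in KO libraries, against 35 in WT25F and 27 in WT22M, so the high value of Kcnq1ot1 in KO23M was not seen in it. These 4 genes were chosen after their values were seen.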
